A study of Mus musculus with 18 samples.

Results

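Potassium channel genes were examined in 18 mouse melanoma allografts read on 1 one-colour expression array each. The genes were all those whose platform symbol starts with Kcn, taken from probe sets with exactly 1 gene symbol. This gave 84 genes on 167 probe sets, out of 18193 genes and 45037 probe sets in the series. The family was chosen because Kcna1 had the largest positive change of the 15004 genes tested in both treated arms, so the Kcna1 values against vehicle are given as a description with no test. Statements on changes were limited to the 35 genes with a mean intensity over the 18 arrays above 50 in at least 1 probe set. The gene just inside this limit was Kcnab3 with a mean intensity of 52.7, and the genes just outside were Kcnd3 at 49.8 and Kcnj9 at 49.7. Of all 84 genes, 61 passed the filter on low values and 23 did not. Of the 35 genes kept, 33 had a probe set above 50 in the mean of every arm, and the exceptions were Kcnq3 and Kcnab3. Kcnf1 is among the 33 through its second probe set alone. The Kcnf1 probe set used below had a mean of 22.3 in NRAS-off tumours.

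The tumours grew from iNRAS-475, a single mouse melanoma line in which doxycycline keeps NRAS expression on, injected intradermally into nude mice, which lack mature T cells. All mice were given water with 2 mg/ml doxycycline, and the tumours reached 200 to 500 mm3 at 6 weeks. In the NRAS-off arm doxycycline was then withdrawn for 4 days, in the MEK-inhibitor arm the mice received 100 mg/kg of AZD6244 (selumetinib) for 4 days, and the third arm received vehicle. Each arm held 6 distinct tumours. The labels give no age for the mice and no promoter for the transgene. Withdrawal of doxycycline was labelled for the NRAS-off arm alone, the labels do not state whether the other arms kept it during the 4 days, and the effects of the drug's removal and of losing NRAS cannot be told apart. The tissue is bulk tumour, in which fewer cells of a type and less RNA per cell cannot be told apart.

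Potassium channels let potassium leave or enter a cell along its gradient and so set the resting potential, end action potentials and support volume control and proliferation. Voltage-gated channels open on depolarization, calcium-activated channels open when cytosolic calcium rises, inward rectifiers hold the membrane near rest, and 2-pore channels carry background leak. Pore subunits assemble with modifier and auxiliary subunits, which change where and how the channels open. In melanocytes and melanoma cells such channels are known to affect membrane potential and the drive for calcium entry.

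The upstream windows of 3 genes described below are shown, because Kcna4 and Kcna6 are the relatives of Kcna1 among the genes kept that were higher in both treated arms and Kcnn4 is the member with the largest fall. Each runs from 250 bases before to 50 bases after the annotated start, 5′ to 3′ on the gene's strand, in RefSeq's GRCm38.p6 assembly. Kcna4 lies at chr2:107290339-107290638 on the plus strand, Kcna6 at chr6:126740625-126740924 on the minus strand, and Kcnn4 at chr7:24370013-24370312 on the plus strand. Capitals mark the E-box letters CACGTG, and a window without capitals held none of the motifs searched.
Kcna4: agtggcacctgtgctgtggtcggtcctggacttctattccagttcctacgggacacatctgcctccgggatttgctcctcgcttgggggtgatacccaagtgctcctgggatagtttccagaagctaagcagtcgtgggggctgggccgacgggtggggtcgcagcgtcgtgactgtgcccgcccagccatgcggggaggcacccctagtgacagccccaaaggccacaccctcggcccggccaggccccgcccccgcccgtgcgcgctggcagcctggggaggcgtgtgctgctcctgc
Kcna6: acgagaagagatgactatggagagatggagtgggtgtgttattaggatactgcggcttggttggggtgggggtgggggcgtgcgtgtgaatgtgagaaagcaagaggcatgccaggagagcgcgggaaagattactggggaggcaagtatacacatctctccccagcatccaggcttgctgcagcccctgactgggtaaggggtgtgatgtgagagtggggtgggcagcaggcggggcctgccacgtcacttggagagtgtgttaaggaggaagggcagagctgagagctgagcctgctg
Kcnn4: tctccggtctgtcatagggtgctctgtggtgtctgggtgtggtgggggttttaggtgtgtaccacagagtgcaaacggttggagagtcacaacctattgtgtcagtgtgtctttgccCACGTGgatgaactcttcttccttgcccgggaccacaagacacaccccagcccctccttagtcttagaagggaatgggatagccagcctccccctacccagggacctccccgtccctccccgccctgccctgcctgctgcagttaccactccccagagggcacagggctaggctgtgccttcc

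The GC content of these windows was 67.7% for Kcna4, 58.3% for Kcna6 and 59.7% for Kcnn4, against a median of 52.7% over all 32851 windows of 300 bases. Of the 35 genes kept, 26 had a window, and Kcna1, Kcnab3, Kcnd1, Kcng2, Kcnh3, Kcnj11, Kcnk3, Kcnk6 and Kcnq3 had none. The motifs, searched on both strands, were AP-1 (TGANTCA, in 7.81% of all windows), ETS (CCGGAAGT, 3.89%), the E-box (7.15%), CRE (TGACGTCA, 1.79%) and FOXO (GTAAACA, 3.65%). Among the 26 genes, 4 had the E-box letters (Kcnab1, Kcne4, Kcnk5 and Kcnn4), 2 had the AP-1 letters (Kcnip3 and Kcnk2), and none had the ETS, CRE or FOXO letters. These 4 and 2 genes include rising, falling and uncalled members. Some genes have several windows and count when any of them holds the letters. The counts of genes are therefore not comparable with the shares of windows. A match describes letters in a window and not a bound site.

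Intensities are linear values for the probe set with the highest mean of each gene, given as the lowest, median and highest of the 6 tumours of an arm. Intensities of different probe sets cannot be compared with each other. Changes are log2 differences of log2(intensity + 16) between arm means, with the standard error, and a gene is said to rise or fall when its limma adjusted p, over all 15004 genes, was under 0.05. The 3 comparisons were NRAS-off with vehicle, MEK inhibitor with vehicle, and NRAS-off with MEK inhibitor. The first pair share the 6 vehicle tumours, so values of the 2 are set side by side and their resemblance was not tested.

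The arrays were alike in scale. Array medians lay between 72.3 and 78.5, and log2 values of tumours within an arm had Pearson correlations of 0.987 to 0.997. Transcripts under control of the MAPK cascade, the kinases that RAS activates, were lower in both treated arms: 14 of 15 listed genes fell in NRAS-off tumours (median −2.67) and 15 of 15 in MEK-inhibitor tumours (median −1.43). Of 7 tested melanocytic markers (9 listed), 5 rose in NRAS-off (median 0.89) and 2 in MEK-inhibitor tumours (median 0.13). Among them Sox10 had medians of 9424 in NRAS-off, 12691 in MEK-inhibitor and 9162 in vehicle tumours, while the pigment enzyme genes Tyr and Tyrp1 stayed below the filter with highest probe set means of 16.3 and 16.5. One NRAS-off tumour, replicate 2, had a summed keratinocyte marker intensity of 31479, against at most 1212 in any other tumour of the 2 treated arms and 692 in vehicle. Without it the Kcn counts of the NRAS-off comparison were the same as with it, 12 higher and 6 lower.

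Kcna1 encodes a low-threshold voltage-gated pore subunit known from axons, where it limits repetitive firing. Its intensity was 4205, 5468 and 6283 in NRAS-off tumours, 2400, 2855 and 3678 in MEK-inhibitor tumours, and 69.6, 123 and 178 in vehicle tumours. The 3 arms did not overlap, and vehicle was far below both treated arms. The difference on the log2 scale was 5.34 ± 0.15 for NRAS-off and 4.43 ± 0.15 for MEK inhibitor against vehicle, and 0.91 ± 0.15 between NRAS-off and MEK inhibitor. The ratio of arm means was 44.5 for NRAS-off and 23.7 for MEK inhibitor against vehicle. In both lists of changes against vehicle Kcna1 stood at rank 1 of 15004.

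Of the 4 Kcna1 probe sets, 3 gave this picture. The second brightest had medians of 4863 in NRAS-off, 2270 in MEK-inhibitor and 73.2 in vehicle tumours, and the third had 1096 in NRAS-off, 561 in MEK-inhibitor and 22.7 in vehicle tumours. The second brightest differed from vehicle by 5.76 in NRAS-off and 4.80 in MEK-inhibitor tumours, and the vehicle median of the third lay below the filter intensity of 23.5, so no difference is given for it. The dimmest probe set, with a mean of 23.7 over all arrays, had medians of 26.5 in NRAS-off, 22.9 in MEK-inhibitor and 20.1 in vehicle tumours. Averaging all probe sets therefore gave smaller Kcna1 differences, of 4.031 for NRAS-off and 3.301 for MEK inhibitor against vehicle.

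In RefSeq's gene order Kcna1 lies between Kcna5 and Kcna6, 2 genes for related pore subunits. Kcna5 was below the filter, with medians of 21.3 in NRAS-off, 18.4 in MEK-inhibitor and 19.5 in vehicle tumours. Ndufa9, a gene of mitochondrial complex I on the far side of Kcna6, differed by 0.05 ± 0.07 in NRAS-off tumours (limma adjusted p = 0.501) and −0.10 ± 0.07 in MEK-inhibitor tumours (limma adjusted p = 0.212), and Akap3 beyond it was below the filter. Kcna6 is described below. Ano2 and Ntf3, beyond Kcna5, were not analysed here.

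**Figure D1:**
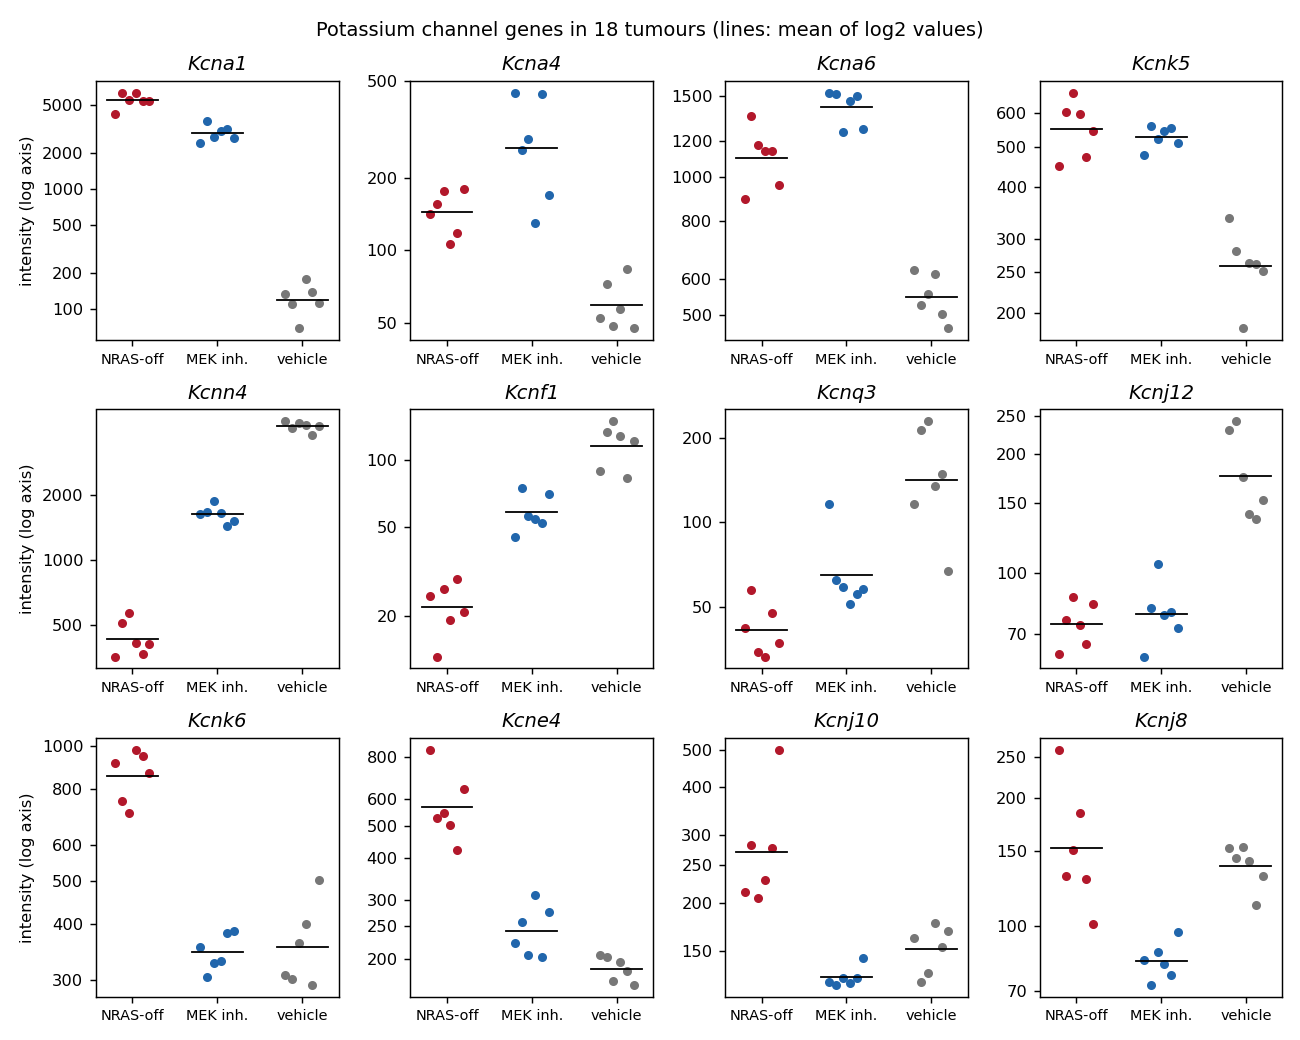
Intensity (log axis, arbitrary units) of 12 potassium channel genes in each of the 18 tumours, by arm. Points are tumours and lines are back-transformed means of log2 values; Kcna1 separates all 3 arms, Kcnn4 runs the other way, and Kcnk6, Kcne4 and Kcnj10 are highest in the NRAS-off arm.

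Marker genes of other cell types also differed between the arms. Of 7 tested Schwann cell markers (10 listed), 5 rose in each treated arm, and their summed intensity was 27953 to 33506 in NRAS-off, 32294 to 35941 in MEK-inhibitor and 19792 to 22379 in vehicle tumours. The list includes Sox10, which is melanocytic too, and Mbp had medians of 1118 in NRAS-off, 324 in MEK-inhibitor and 173 in vehicle tumours. All 12 skeletal muscle markers rose in each treated arm, with sums of 32324 to 48900 in NRAS-off, 18695 to 43597 in MEK-inhibitor and 3130 to 16577 in vehicle tumours. Of 6 tested neuron markers (8 listed) limma called none higher (0 at an unadjusted p under 0.05 too), and 3 fell in NRAS-off and 2 in MEK-inhibitor tumours. The other 3 in NRAS-off and 4 in MEK-inhibitor tumours were not called, and the median changes were −0.46 and −0.09. Their sums, to which the brightest probe sets add most, were 690 to 1114 in NRAS-off, 1439 to 2018 in MEK-inhibitor and 2800 to 4954 in vehicle tumours. The neuronal genes Snap25 and Elavl4 were below the filter, with highest probe set means of 13.6 and 15.1. The part of these cell types in the Kcna1 values was not tested.

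Setting NRAS-off against vehicle tumours addresses how channel transcripts differ after doxycycline withdrawal. Among the 34 genes kept other than Kcna1, 12 rose, 6 fell and 16 passed in neither direction. That is 52.9% called, against 59.3% of all genes tested (31.8% higher and 27.5% lower). Of the 34 genes, 16 were called with groups that did not overlap, against 39.2% of all genes tested. They were 11 of the 34 higher, against 20.8% of all genes, and 5 of the 34 lower, against 18.4%. The median change of the 34 genes was −0.0015, against 0.0037 over all genes. The 34 genes had passed the limit on mean intensity for members, while all genes tested had passed the filter on low values alone. Shares of the genes kept, here and below, are therefore not like for like with those of all genes. Over the 60 tested members other than Kcna1, low ones included, 15 rose and 9 fell, or 40% called against 59.3%. These 60 had passed the same filter as all genes.

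Setting MEK-inhibitor against vehicle tumours addresses how they differ when MEK is inhibited. Of the 34 genes, 7 rose, 5 fell and 22 passed in neither direction, which is 35.3% called against 45.3% of all genes (24.3% higher and 21% lower). Called genes with groups that did not overlap were 9 of the 34, against 25.4% of all genes. They were 5 of the 34 higher, against 12.8% of all genes, and 4 of the 34 lower, against 12.6%. The median was −0.04, against 0.0091 over all genes. Between NRAS-off and MEK-inhibitor tumours 9 genes were higher and 7 lower in NRAS-off, or 47.1% called against 47.1% of all genes (24.4% higher and 22.7% lower). There 9 of the 34 were called with groups apart, against 28.2% of all genes. They were 6 of the 34 higher, against 15% of all genes, and 3 of the 34 lower, against 13.3%. The median was −0.06, against −0.0089 over all genes.

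**Figure D2:**
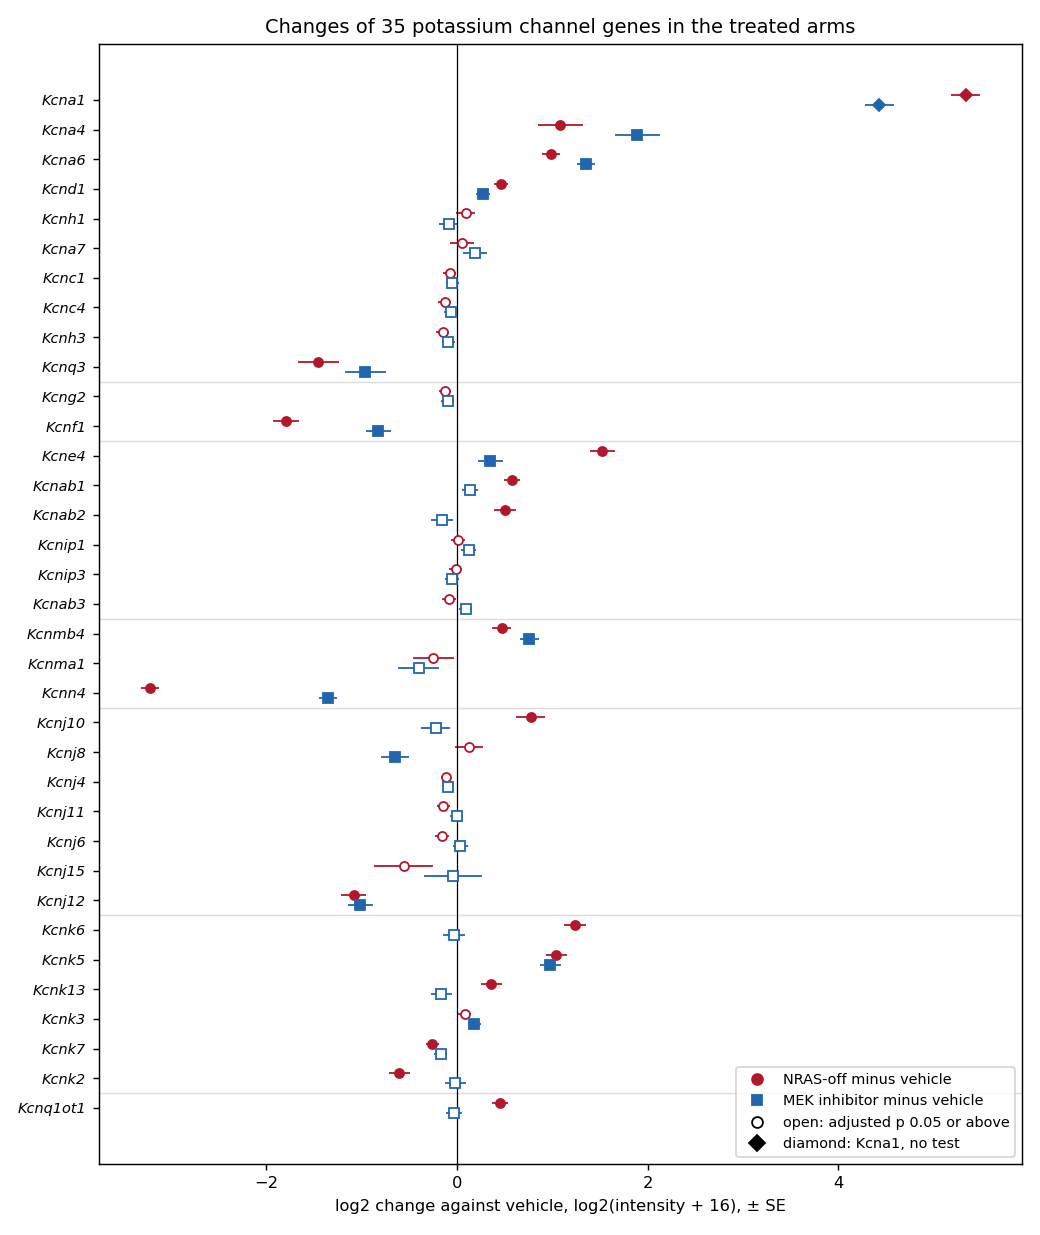
Log2 change against vehicle ± SE of the 35 potassium channel genes kept, on the log2(intensity + 16) scale. Circles are NRAS-off and squares MEK inhibitor, filled where the limma adjusted p was under 0.05, diamonds are Kcna1, which has no test, and grey lines part the subunit classes; Kcna1 lies to the far right at 5.34 and 4.43 and Kcnn4 to the far left at −3.22 and −1.35.

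Voltage-gated pore subunits came to 9 genes beside Kcna1. In each treated arm 3 of them rose and 1 fell against vehicle, or 44.4% called. Of all genes tested 59.3% were called in NRAS-off and 45.3% in MEK-inhibitor tumours. Kcna4 encodes a fast-inactivating pore subunit that can assemble with the Kcna1 product. Its intensity was 107, 149 and 179 in NRAS-off, 129, 275 and 449 in MEK-inhibitor and 47.7, 54.9 and 83.6 in vehicle tumours. Both treated arms lay wholly above vehicle, with the widest spread under the MEK inhibitor. Kcna4 rose by 1.08 ± 0.24 in NRAS-off (limma adjusted p = 5.79e-04) and by 1.89 ± 0.24 in MEK-inhibitor tumours (limma adjusted p = 2.84e-06), where it ranked 38 from the top of 15004 genes. It was lower by 0.81 ± 0.24 in NRAS-off than in MEK-inhibitor tumours (−0.81, limma adjusted p = 0.00819), with overlap. The second Kcna4 probe set rose less, by 0.37 in NRAS-off and 0.47 in MEK-inhibitor tumours.

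Kcna6, the neighbour of Kcna1, encodes another delayed rectifier subunit of the same subfamily. Its intensity was 893, 1139 and 1357 in NRAS-off, 1256, 1482 and 1526 in MEK-inhibitor and 469, 541 and 626 in vehicle tumours. Every treated tumour exceeded every vehicle tumour, and the treated arms overlapped each other. The rise was 0.99 ± 0.09 in NRAS-off (limma adjusted p = 3.73e-08) and 1.35 ± 0.09 in MEK-inhibitor tumours (limma adjusted p = 1.95e-09). The change between the treated arms was −0.36 ± 0.09 (limma adjusted p = 0.00362), and this call ended when all probe sets were averaged (−0.093). A second probe set with a mean of 60.6 differed by 0.20 in NRAS-off and 0.08 in MEK-inhibitor tumours and did not pass.

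Kcnq3 encodes a subunit of the M-current channels, which dampen neuronal excitability. Its intensity was 33.4, 39.7 and 57.3 in NRAS-off, 51.5, 58.6 and 116 in MEK-inhibitor and 67.3, 141 and 229 in vehicle tumours. NRAS-off lay wholly below vehicle, whereas 1 MEK-inhibitor tumour reached into the vehicle range. The change was −1.45 ± 0.21 in NRAS-off (limma adjusted p = 9.31e-06) and −0.96 ± 0.21 in MEK-inhibitor tumours (limma adjusted p = 0.00111). Between the treated arms it did not pass (−0.49 ± 0.21, limma adjusted p = 0.0681).

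Kcnd1, an A-type pore subunit gene, had an intensity of 159, 205 and 232 in NRAS-off, 160, 170 and 180 in MEK-inhibitor and 129, 139 and 147 in vehicle tumours. Both treated arms lay above vehicle. It rose by 0.47 ± 0.07 in NRAS-off (limma adjusted p = 1.78e-05) and 0.28 ± 0.07 in MEK-inhibitor tumours (limma adjusted p = 0.00421). Between the treated arms the rise of 0.19 ± 0.07 was near the threshold (limma adjusted p = 0.0382) and ended, for example, with median centring (0.16) and without NRAS-off replicate 1 (0.145). The remaining pore subunit genes Kcna7, Kcnc1, Kcnc4, Kcnh1 and Kcnh3 passed in no comparison, with changes against vehicle between −0.15 and 0.19. For Kcnc1 the direction depended on the probe set: the most variable one rose by 0.354 in NRAS-off tumours.

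Of 2 modifier subunit genes, Kcnf1 fell in both treated arms and Kcng2 passed in none. Modifier subunits form no channel alone and alter the channels they join. Kcnf1 had an intensity of 13.2, 22.8 and 29.4 in NRAS-off, 45.2, 55.3 and 75.4 in MEK-inhibitor and 82.8, 125 and 149 in vehicle tumours. The arms formed a ladder without overlap, with vehicle at the top and NRAS-off close to the filter intensity of 23.5. The change was −1.79 ± 0.13 in NRAS-off (limma adjusted p = 1.40e-09), −0.82 ± 0.13 in MEK-inhibitor tumours (limma adjusted p = 5.62e-05) and −0.97 ± 0.13 between them (limma adjusted p = 6.87e-06). In 3 of 6 NRAS-off tumours Kcnf1 lay below that intensity, so the sizes of the changes that involve NRAS-off are uncertain. A second probe set changed less, by −0.44 in NRAS-off and −0.33 in MEK-inhibitor tumours.

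The calcium-activated class held 3 genes, and Kcnn4 had the largest fall of all channel genes kept. Kcnn4 encodes the intermediate-conductance calcium-activated channel, known from red cells, activated lymphocytes and dividing cells. Its intensity was 359, 412 and 568 in NRAS-off, 1442, 1648 and 1886 in MEK-inhibitor and 3812, 4217 and 4389 in vehicle tumours. The 3 arms were wide apart, each with a narrow spread. Kcnn4 changed by −3.22 ± 0.09 in NRAS-off (limma adjusted p = 1.14e-14) and by −1.35 ± 0.09 in MEK-inhibitor tumours (limma adjusted p = 2.16e-09), ranks 31 and 171 from the lowest of 15004 changes. It was also lower in NRAS-off than in MEK-inhibitor tumours, by −1.87 ± 0.09 (limma adjusted p = 4.03e-11). Its second probe set had medians of 180 in NRAS-off, 579 in MEK-inhibitor and 1734 in vehicle tumours, the same order. The E-box letters in its upstream window are those in capitals above.

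Kcnmb4, a beta subunit gene of the large-conductance calcium-activated channel, had an intensity of 273, 377 and 424 in NRAS-off, 403, 437 and 474 in MEK-inhibitor and 229, 237 and 322 in vehicle tumours. The MEK-inhibitor arm lay wholly above vehicle and the NRAS-off arm overlapped it. The rise was 0.47 ± 0.10 in NRAS-off (limma adjusted p = 5.80e-04) and 0.76 ± 0.10 in MEK-inhibitor tumours (limma adjusted p = 6.83e-06). Between the treated arms Kcnmb4 changed by −0.29 ± 0.10 (limma adjusted p = 0.0243), and it no longer passed when NRAS-off replicate 4 or 5 or MEK-inhibitor replicate 1 or 6 was left out (−0.22 to −0.271). Kcnma1, the pore subunit of that channel, did not pass, at −0.25 ± 0.21 in NRAS-off and −0.40 ± 0.21 in MEK-inhibitor tumours (limma adjusted p = 0.338 and 0.146), and its vehicle tumours ranged from 47.8 to 185.

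Auxiliary subunits rose in 3 of 6 genes in NRAS-off tumours and in 1 of 6 in MEK-inhibitor tumours. Limma called none lower (0 at an unadjusted p under 0.05 too). The shares called were 50% in NRAS-off and 16.7% in MEK-inhibitor tumours, against 59.3% and 45.3% of all genes tested. Kcne4 encodes a single-pass subunit that inhibits several voltage-gated channels, the Kcna1 product among them. Its intensity was 422, 536 and 844 in NRAS-off, 203, 240 and 310 in MEK-inhibitor and 167, 189 and 204 in vehicle tumours. NRAS-off stood above both other arms, which overlapped at their edges. The change was 1.52 ± 0.13 in NRAS-off (limma adjusted p = 1.03e-08) and 1.17 ± 0.13 between the treated arms (limma adjusted p = 5.48e-07). Under the MEK inhibitor the rise of 0.35 ± 0.13 was near the threshold (limma adjusted p = 0.036) and ended, for example, with a pseudocount of 64 (0.291) and without MEK-inhibitor replicate 4 (0.283).

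Kcnab1 and Kcnab2 encode cytoplasmic beta subunits of the Kcna channels. Kcnab2 had an intensity of 134, 146 and 192 in NRAS-off, 75.3, 87.5 and 132 in MEK-inhibitor and 89.7, 105 and 130 in vehicle tumours. The NRAS-off arm lay above the other two. Kcnab2 rose by 0.51 ± 0.12 in NRAS-off tumours (limma adjusted p = 8.56e-04) and differed by −0.15 ± 0.12 under the MEK inhibitor (limma adjusted p = 0.307), and the treated arms differed by 0.66 ± 0.12 (limma adjusted p = 9.77e-05). Kcnab1 rose by 0.58 ± 0.09 in NRAS-off tumours (limma adjusted p = 1.01e-05), differed by 0.14 ± 0.09 under the MEK inhibitor (limma adjusted p = 0.199) and was 0.44 ± 0.09 higher in NRAS-off than in MEK-inhibitor tumours (limma adjusted p = 3.14e-04). Kcnab3, Kcnip1 and Kcnip3 passed in no comparison.

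**Figure D3:**
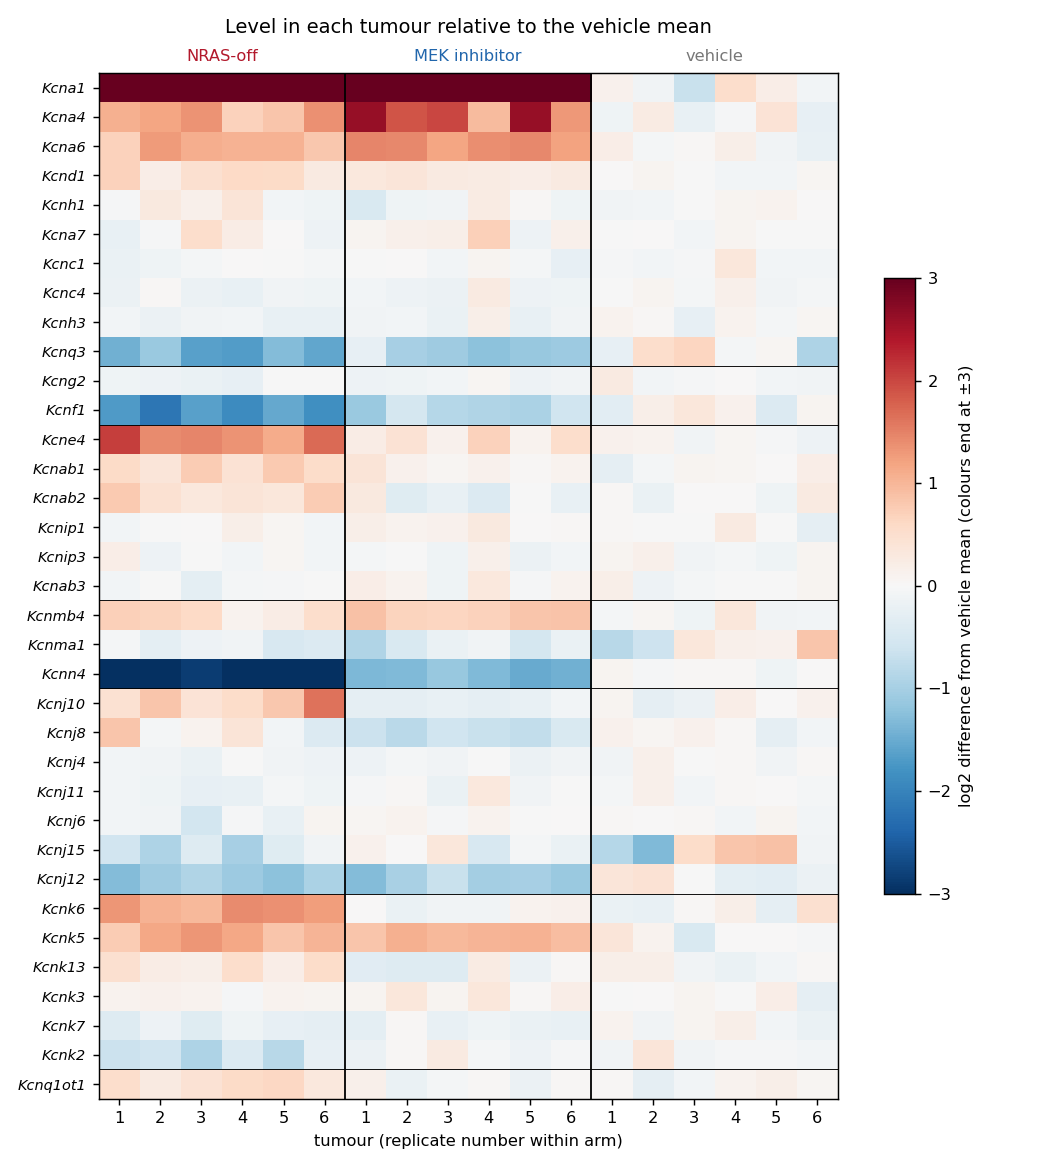
The log2(intensity + 16) of the 35 potassium channel genes kept in each tumour, minus the mean of the 6 vehicle tumours, grouped by subunit class. Columns are tumours by replicate number within NRAS-off, MEK inhibitor and vehicle, the colours are capped at −3 and 3 so that Kcna1 (5.34 and 4.43) is off the scale, and Kcnn4 is lowest at −3.22 and −1.35.

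Inward rectifiers gave 7 genes, of which 1 rose and 1 fell in NRAS-off tumours. In MEK-inhibitor tumours 2 fell and limma called none higher (0 at an unadjusted p under 0.05 too). The share called was 28.6% in each arm, against 59.3% of all genes tested in NRAS-off and 45.3% in MEK-inhibitor tumours. Kcnj12 encodes a strong inward rectifier known from heart and skeletal muscle. Its intensity was 62.4, 74.9 and 86.9 in NRAS-off, 61.5, 79.0 and 106 in MEK-inhibitor and 137, 164 and 242 in vehicle tumours. Both treated arms lay below vehicle and overlapped each other. The change was −1.08 ± 0.13 in NRAS-off and −1.01 ± 0.13 in MEK-inhibitor tumours (limma adjusted p = 7.31e-07 and 3.95e-06), and the difference between the treated arms was −0.07 ± 0.13 (limma adjusted p = 0.683). The skeletal muscle markers given above rose in both treated arms. The part of muscle in the Kcnj12 values was not tested.

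Kcnj10 encodes a weak inward rectifier of glia, kidney and melanocyte-derived cells of the inner ear. Its intensity was 206, 253 and 500 in NRAS-off, 122, 126 and 143 in MEK-inhibitor and 124, 158 and 178 in vehicle tumours. NRAS-off stood above both other arms, with replicate 6 highest. Kcnj10 rose by 0.78 ± 0.15 in NRAS-off tumours (limma adjusted p = 2.02e-04), did not pass under the MEK inhibitor (−0.22 ± 0.15, limma adjusted p = 0.255), and differed by 1.00 ± 0.15 between them (limma adjusted p = 2.11e-05).

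Kcnj8 encodes the pore of the ATP-sensitive channel of vascular smooth muscle and pericytes. Its intensity was 101, 141 and 260 in NRAS-off, 72.5, 82.2 and 96.5 in MEK-inhibitor and 112, 143 and 153 in vehicle tumours. The MEK-inhibitor arm lay below both others, which overlapped. It fell under the inhibitor (−0.65 ± 0.15, limma adjusted p = 0.00119), did not pass in NRAS-off tumours (0.13 ± 0.15, limma adjusted p = 0.469), and was 0.78 ± 0.15 higher in NRAS-off than in MEK-inhibitor tumours (limma adjusted p = 2.00e-04). Of 10 smooth muscle and pericyte markers 6 rose and 1 fell in NRAS-off tumours and 3 rose and 2 fell in MEK-inhibitor tumours, with sums of 13601 to 15982 in NRAS-off, 13172 to 14505 in MEK-inhibitor and 12595 to 14756 in vehicle tumours. The pericyte gene Rgs5 was 1 of the 2 that fell under the inhibitor (−0.72 ± 0.17, limma adjusted p = 0.00155). There 5 of the 10 were not called, and the median change of the 10 was 0.03. The part of these cells in the Kcnj8 values was not tested.

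Kcnj4, Kcnj6, Kcnj11 and Kcnj15 passed in neither comparison with vehicle. Kcnj15 was the most variable of them, with 57.0, 88.0 and 118 in NRAS-off, 87.9, 127 and 168 in MEK-inhibitor and 42.3, 158 and 251 in vehicle tumours. Its change of −0.56 ± 0.31 in NRAS-off tumours was within that spread (limma adjusted p = 0.13). Kcnj6 was lower in NRAS-off than in MEK-inhibitor tumours at the edge of the threshold (−0.19 ± 0.08, limma adjusted p = 0.0473), and the call ended when any 1 of the 18 tumours other than NRAS-off replicates 4 and 6 was left out (−0.112 to −0.206).

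Of 6 2-pore genes 3 rose and 2 fell in NRAS-off tumours, or 83.3% called against 59.3% of all genes tested. Under the MEK inhibitor 2 rose and limma called none lower (1 at an unadjusted p under 0.05), or 33.3% called against 45.3%. Kcnk5 encodes an acid-sensitive leak channel. Its intensity was 450, 572 and 672 in NRAS-off, 478, 533 and 562 in MEK-inhibitor and 184, 263 and 337 in vehicle tumours. Both treated arms were above vehicle and overlapped each other. Kcnk5 rose by 1.04 ± 0.11 in NRAS-off and 0.98 ± 0.11 in MEK-inhibitor tumours (limma adjusted p = 1.57e-07 and 8.83e-07), and the difference between the treated arms was 0.06 ± 0.11 (limma adjusted p = 0.674).

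Kcnk6 encodes a weakly conducting 2-pore channel. Its intensity was 710, 894 and 981 in NRAS-off, 305, 344 and 388 in MEK-inhibitor and 293, 336 and 504 in vehicle tumours. Only the NRAS-off arm stood apart. The change was 1.23 ± 0.11 in NRAS-off (limma adjusted p = 2.84e-08), −0.03 ± 0.11 in MEK-inhibitor tumours (limma adjusted p = 0.85) and 1.27 ± 0.11 between the treated arms (limma adjusted p = 3.92e-08).

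Kcnk2 encodes a mechanically gated leak channel. Its intensity was 42.5, 57.5 and 78.3 in NRAS-off, 82.6, 92.2 and 118 in MEK-inhibitor and 87.6, 91.2 and 127 in vehicle tumours. Here the NRAS-off arm lay below the other two. The change was −0.60 ± 0.11 in NRAS-off tumours (limma adjusted p = 9.61e-05), −0.02 ± 0.11 in MEK-inhibitor tumours (limma adjusted p = 0.925) and −0.59 ± 0.11 between them (limma adjusted p = 1.90e-04).

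The other 2-pore genes had small changes. Kcnk13 rose by 0.36 ± 0.11 and Kcnk7 changed by −0.26 ± 0.07 in NRAS-off tumours (limma adjusted p = 0.00823 and 0.00381). Kcnk13 was also higher in NRAS-off than in MEK-inhibitor tumours, by 0.53 ± 0.11 (limma adjusted p = 5.64e-04). Kcnk3 rose by 0.18 ± 0.07 in MEK-inhibitor tumours (limma adjusted p = 0.0424), with overlapping groups, and this call ended with the mean of all probe sets (0.014) and in several other settings. Kcnq1ot1, a noncoding RNA transcribed antisense to the channel gene Kcnq1 and no channel itself, had an intensity of 417, 488 and 544 in NRAS-off, 299, 344 and 383 in MEK-inhibitor and 284, 355 and 391 in vehicle tumours. NRAS-off lay above both other arms. It rose by 0.46 ± 0.08 in NRAS-off (limma adjusted p = 8.87e-05) and differed by −0.03 ± 0.08 under the MEK inhibitor (limma adjusted p = 0.793) and 0.49 ± 0.08 between the treated arms (limma adjusted p = 6.62e-05). Kcnq1ot1 overlaps Kcnq1, and the strand of its probes was not checked.

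Immune and stromal markers differed between the arms too. For the lists in this paragraph the sums in NRAS-off tumours lay above those of both other arms, except that the mast cell sums overlapped those of vehicle. The smooth muscle and pericyte sums, given above, overlapped between all arms. Of 10 macrophage markers 9 rose in NRAS-off and 7 fell in MEK-inhibitor tumours, with sums of 42640 to 60160 in NRAS-off, 8556 to 19402 in MEK-inhibitor and 17160 to 28392 in vehicle tumours. All 10 endothelial markers rose in NRAS-off, while 1 rose and 1 fell in MEK-inhibitor tumours, with sums of 2440 to 3503 in NRAS-off, 1177 to 1864 in MEK-inhibitor and 1091 to 1901 in vehicle tumours. Of 8 fibroblast markers 7 rose and 1 fell in NRAS-off and 6 rose and 1 fell in MEK-inhibitor tumours, with sums of 174684 to 205219 in NRAS-off, 116018 to 123195 in MEK-inhibitor and 74164 to 90303 in vehicle tumours. Of 6 tested adipocyte markers (7 listed) 4 rose in NRAS-off and 1 in MEK-inhibitor tumours, with sums of 11942 to 20273 in NRAS-off, 2483 to 4989 in MEK-inhibitor and 1618 to 4155 in vehicle tumours. Of 7 mast cell markers 4 rose in NRAS-off and 7 fell in MEK-inhibitor tumours, with sums of 1407 to 2441 in NRAS-off, 338 to 982 in MEK-inhibitor and 942 to 1770 in vehicle tumours. Of 6 tested lymphoid and NK markers (9 listed) 5 rose and 1 fell in NRAS-off and 2 fell in MEK-inhibitor tumours, with sums of 1917 to 4550 in NRAS-off, 698 to 961 in MEK-inhibitor and 1159 to 1900 in vehicle tumours. The part of all these cell types in the channel values was not tested.

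**Figure D4:**
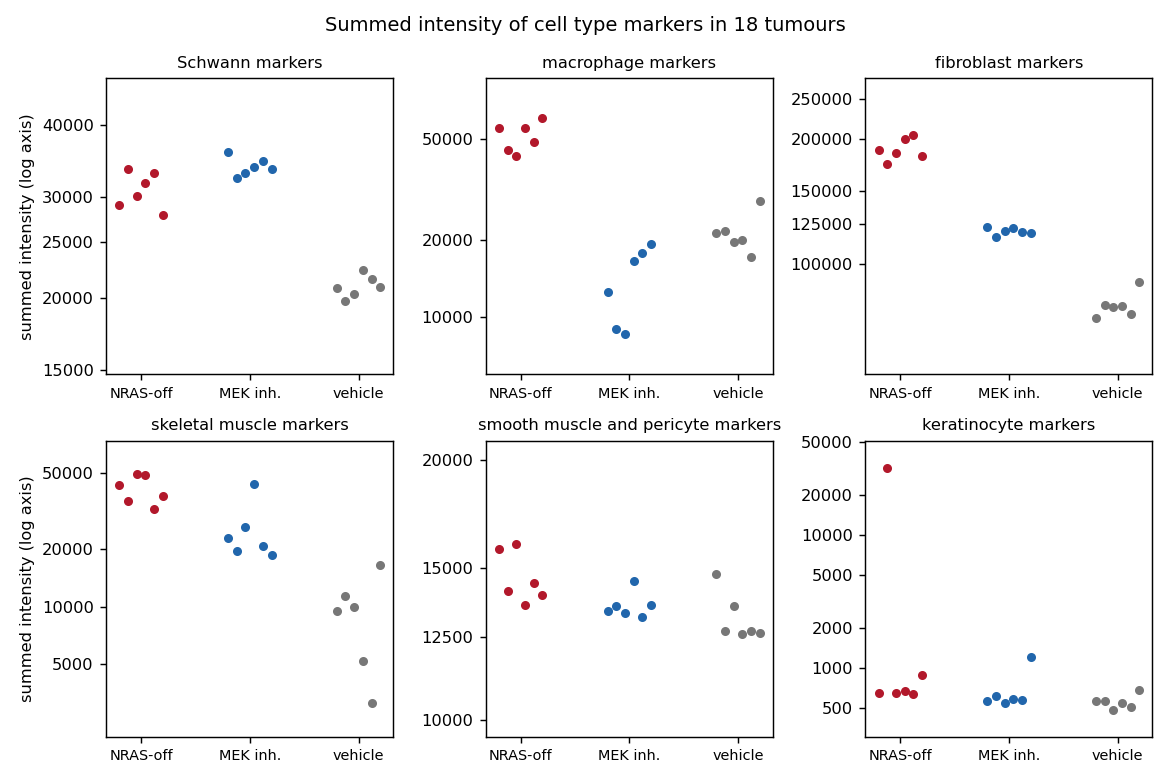
Summed intensity (log axis) of 6 cell type marker lists in each of the 18 tumours, by arm. Schwann and skeletal muscle sums are higher in the treated arms, macrophage sums are highest in NRAS-off and lowest in MEK-inhibitor tumours, and NRAS-off replicate 2 stands out for keratinocyte markers at 31479.

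Second probe sets gave a check on the values of some genes. There were 10 further probe sets with a mean above 50 for 7 of the genes other than Kcna1. Their call was the same as that of the main probe set in 8 cases for NRAS-off against vehicle, 9 for MEK inhibitor against vehicle and 6 between the treated arms. None had the opposite call. Pairs in which neither probe set passed count as the same call, and dimmer probe sets were left out.

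Partner proteins of the channels changed in both directions. Of 10 tested genes (16 listed) 3 rose and 4 fell in NRAS-off tumours (median −0.11), and 2 rose and 1 fell in MEK-inhibitor tumours (median 0.09). The shares called were 70% in NRAS-off and 30% in MEK-inhibitor tumours, against 59.3% and 45.3% of all genes tested. Adam23, a neuronal receptor of LGI proteins, had an intensity of 661, 909 and 1124 in NRAS-off, 468, 571 and 687 in MEK-inhibitor and 56.7, 152 and 252 in vehicle tumours. It rose by 2.51 ± 0.22 in NRAS-off and 1.92 ± 0.22 in MEK-inhibitor tumours (limma adjusted p = 1.70e-08 and 1.29e-06). Its relative Adam22 rose by 0.93 ± 0.13 in NRAS-off tumours (limma adjusted p = 5.39e-06) and did not pass under the MEK inhibitor (0.18 ± 0.13, limma adjusted p = 0.277). The secreted ligand gene Lgi4 changed by −0.69 ± 0.12 in NRAS-off and 0.33 ± 0.12 in MEK-inhibitor tumours (limma adjusted p = 6.28e-05 and 0.0309). The scaffold gene Dlg1 changed by −0.63 ± 0.05 in NRAS-off and −0.49 ± 0.05 in MEK-inhibitor tumours (limma adjusted p = 1.96e-09 and 1.52e-07). Abcc9, the regulatory subunit paired with Kcnj8, rose by 0.53 ± 0.18 in NRAS-off tumours (limma adjusted p = 0.0162) and differed by 0.03 ± 0.18 under the MEK inhibitor (limma adjusted p = 0.919). Cntnap2 and Lgi1, which are part of Kcna1 complexes in axons, were below the filter with highest probe set means of 16.6 and 17.1.

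Pumps and cotransporters that move potassium gave 15 tested genes (22 listed). In NRAS-off tumours 4 rose and 4 fell (median 0.10), and in MEK-inhibitor tumours 4 rose and 2 fell (median −0.04). The shares called were 53.3% in NRAS-off and 40% in MEK-inhibitor tumours, against 59.3% and 45.3% of all genes tested. Fxyd5, a regulator of the sodium pump, had an intensity of 2276, 2382 and 2789 in NRAS-off, 3170, 4208 and 4735 in MEK-inhibitor and 7367, 8091 and 8623 in vehicle tumours. The arms were apart and in the same order as for Kcnn4. Fxyd5 changed by −1.69 ± 0.09 in NRAS-off and −0.98 ± 0.09 in MEK-inhibitor tumours (limma adjusted p = 1.11e-11 and 4.50e-08). Atp1b2, a beta subunit of the sodium pump, rose by 0.78 ± 0.08 in NRAS-off and 0.81 ± 0.08 in MEK-inhibitor tumours (limma adjusted p = 6.53e-08 and 1.12e-07). The HCN and cyclic nucleotide-gated channels, structural relatives of the voltage-gated potassium channels, had 4 tested genes (10 listed), and limma called none in either comparison with vehicle. At an unadjusted p under 0.05 the count was 0 in NRAS-off tumours and 1 in MEK-inhibitor tumours (Cngb1, −0.19 ± 0.07, limma adjusted p = 0.0501).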

How the data were processed

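RNA of 18 tumours in 3 arms of 6 was labelled with biotin and read on one-colour Affymetrix arrays. The authors deposited linear intensity values for 45037 probe sets, and the submitters' processing notes name MAS5 and RMA without a version and without saying which made the table. If another transformation made it, fold changes are on another scale. Replicates are distinct tumours, and no label gives a batch. Symbols came from the platform annotation: 34945 probe sets had 1 symbol, 932 several and 9160 no entry. Each gene was read from its probe set with the highest mean, transformed to log2(intensity + 16), and left out at or below the 25th percentile of probe set means (intensity 23.5). One model over the 3 arms was fitted in R 4.3.3 (limma 3.58.1), with Benjamini-Hochberg adjustment per comparison over 15004 genes. The fit was tested on simulated data with independent noise and far fewer changed genes than were called here. Figures used matplotlib 3.10.9 in Python 3.11.15. The members, gene lists and marker lists were chosen with earlier results of these data known. Full values are given for Kcna1 and for up to 10 members per comparison with the largest change among called members whose groups did not overlap. Other members kept are given by their change or by class, and genes of related lists were named after their values were seen. Alternatives covered the pseudocount, filter, probe set choice, normalization, prior, array weights, thresholds, the intensity limit for members, a replicate block and leaving out each tumour. The number of arrays limits the precision.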

Additional observations from a re-analysis of the deposited data

Results flagged for a closer look

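In 12 of 105 groups of 6 tumours, 1 tumour lay far from the others on the log2 scale by Dixon's test at its 95% critical value, where chance gives about 1 in 20. MEK-inhibitor replicate 4 was highest for Kcna7 at 149.924 (next 96.8), Kcnc4 at 160.894 (next 121) and Kcnh3 at 223.594 (next 183). Its array had a lower quartile of 24.9, and that of the other arrays was at most 23.9. MEK-inhibitor replicate 1 was highest for Kcnab1 at 80.8304 (next 66.1) and Kcnq3 at 116.118 (next 62.5), and replicate 6 for Kcnj10 at 143.371 (next 128). Among NRAS-off tumours, replicate 6 was highest for Kcnj10 at 499.554 (next 283), replicate 3 lowest for Kcnab3 at 40.1351 (next 48.7) and replicate 4 lowest for Kcnk3 at 47.9547 (next 53.9). Among vehicle tumours, replicate 4 was highest for Kcnc1 at 105.494 (next 77.8), replicate 1 for Kcng2 at 81.4339 (next 65.8) and replicate 2 for Kcnk2 at 126.599 (next 93.1).

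Of the 26 tested members under the mean intensity of 50, 3 rose and 3 fell in NRAS-off tumours (23.1% called, against 59.3% of all genes tested). Among all members not kept, 3 were singled out by a limma adjusted p under 0.05, groups that did not overlap and a change of at least 0.5. The limma fit for this had no filter on low values and took in Kcnt2 from below the filter. In the filtered fit 39.2% of all genes were called without overlap in NRAS-off and 25.4% in MEK-inhibitor tumours. Those shares carry no limit on the size of a change, so the count of 3 cannot be set against them. Kcna2, a further relative of Kcna1, differed from vehicle by 0.687 in NRAS-off and 0.68 in MEK-inhibitor tumours, with median intensities of 45.2 in NRAS-off, 44.8 in MEK-inhibitor and 20.9 in vehicle tumours. Kcnn1, a small-conductance calcium-activated channel gene, rose by 0.532 in NRAS-off tumours (limma adjusted p = 5.90e-05), with medians of 54.0 in NRAS-off and 35.3 in vehicle tumours. Kcnt2, a sodium-activated channel gene, differed by 0.655 in NRAS-off tumours, with medians of 36.1 in NRAS-off and 17.0 in vehicle tumours. The vehicle medians of Kcna2 and Kcnt2 lay below the filter intensity of 23.5, so the sizes of their differences are uncertain. Kcnk4, a 2-pore channel gene, fell by less, with a change of −0.20 in NRAS-off tumours (limma adjusted p = 0.00231 in the filtered fit) and groups that did not overlap.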

How the results depend on the processing

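All 18 calls in NRAS-off against vehicle were kept under every alternative that changed the fit or the values and still tested the gene (the 50th percentile filter tested 23 of the 34 genes), as were 10 of 12 calls in MEK inhibitor against vehicle (not Kcne4 and Kcnk3) and 12 of 16 between the treated arms (not Kcna6, Kcnd1, Kcnj6 and Kcnmb4). With the most variable probe set Kcnc1 turned to 0.354 in NRAS-off against vehicle and to 0.186 in NRAS-off against MEK inhibitor, since another probe set stands for the gene, and Kcna1 came to 5.762 in NRAS-off tumours. With a pseudocount of 64 Kcna1 came to 4.902 in NRAS-off and 4.007 in MEK-inhibitor tumours. In NRAS-off against vehicle 3 of 23 channel genes were called lower with a filter at the 50th percentile, against 3700 of 11306 over all genes. With a member limit of 100 they were 2 of 17. With quantile normalization they were 10 of 34, against 4308 of 15005 over all genes, and the cause was not tested. At 2-fold 4 of 34 rose and 4 of 34 fell. In MEK inhibitor against vehicle those lower were 3 of 23 with the 50th percentile filter, against 2966 of 11306 over all genes. They were 3 of 17 with the limit of 100 and 2 of 34 at 2-fold, and 2 of 34 rose at least 2-fold. In NRAS-off against MEK inhibitor 2 were higher and 1 lower at 2-fold, and 4 were lower with the limit of 100. The stricter filter and limit test fewer genes. Over all genes, testing every probe set gave 9445 higher and 9035 lower, 6950 and 6783, and 6943 and 6748 in the 3 comparisons, and the 2-fold threshold gave 946 and 637, 280 and 314, and 676 and 412.

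Leaving out 1 tumour gave 12 to 12 channel genes higher and 6 to 9 lower in NRAS-off against vehicle, 5 to 7 and 5 to 6 in MEK inhibitor against vehicle, and 8 to 9 and 5 to 8 between the treated arms. Over all genes it gave 4562 to 4836 and 3904 to 4183, 3352 to 3675 and 2964 to 3162, and 3446 to 3675 and 3138 to 3439. Tumours share replicate numbers across arms, and the sample titles do not name them as pairs. Of 18 same-number pairs 6 correlated above 0.1 (−0.12 to 0.34), and in 7 of the 18 the own number correlated best. The numbers were not taken as pairs, but these values do not settle whether they are. With the replicate block 12 channel genes were higher and 7 lower, 6 and 5, and 8 and 7 in the 3 comparisons.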

Other observations

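Other ion channel genes were read from the same arrays. Of 6 tested voltage-gated sodium channel genes (14 listed) 4 rose in NRAS-off tumours (median 0.71) and 3 in MEK-inhibitor tumours (median 0.34). Limma called none lower in either arm (0 at an unadjusted p under 0.05 too). The shares called were 66.7% in NRAS-off and 50% in MEK-inhibitor tumours, against 59.3% and 45.3% of all genes tested. Scn7a, a sodium-sensing relative of the sodium channels that is also on the Schwann cell list, had an intensity of 1494, 1599 and 2079 (lowest, median and highest) in NRAS-off, 359, 636 and 914 in MEK-inhibitor and 182, 283 and 472 in vehicle tumours. It rose by 2.53 ± 0.21 in NRAS-off and 1.09 ± 0.21 in MEK-inhibitor tumours (limma adjusted p = 7.64e-09 and 3.70e-04). The beta subunit gene Scn2b rose by 1.91 ± 0.25 in NRAS-off tumours (limma adjusted p = 2.71e-06) and did not pass under the MEK inhibitor (0.39 ± 0.25, limma adjusted p = 0.235).

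Of 15 tested voltage-gated calcium channel genes (20 listed) 9 rose and 1 fell in NRAS-off tumours (median 0.25). In MEK-inhibitor tumours 5 rose and 1 fell (median 0.08). The shares called were 66.7% in NRAS-off and 40% in MEK-inhibitor tumours, against 59.3% and 45.3% of all genes tested. Cacna1s, the skeletal muscle channel, rose by 1.10 ± 0.15 in NRAS-off and 0.59 ± 0.15 in MEK-inhibitor tumours (limma adjusted p = 2.83e-06 and 0.00282) and is on the skeletal muscle list too. Cacna1d, an L-type pore subunit gene, had an intensity of 89.9, 102 and 123 in NRAS-off, 43.5, 48.5 and 56.2 in MEK-inhibitor and 48.6, 50.5 and 78.1 in vehicle tumours. It rose by 0.76 ± 0.09 in NRAS-off tumours (limma adjusted p = 9.31e-07) and differed by −0.11 ± 0.09 under the MEK inhibitor (limma adjusted p = 0.356). The part of muscle and nerve cells in these values was not tested.

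Among regulators of the sodium pump, Fxyd3 had an intensity of 190, 326 and 1228 in NRAS-off, 753, 1129 and 1417 in MEK-inhibitor and 1241, 1531 and 2269 in vehicle tumours. It changed by −1.99 ± 0.30 in NRAS-off tumours (limma adjusted p = 1.39e-05) and did not pass under the MEK inhibitor (−0.46 ± 0.30, limma adjusted p = 0.236). Fxyd6 rose by 1.16 ± 0.17 in NRAS-off and 0.48 ± 0.17 in MEK-inhibitor tumours (limma adjusted p = 1.08e-05 and 0.031).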
